A study of Cunninghamia lanceolata with 2 samples.

Results

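Ribosomal protein genes were compared between roots of Chinese fir (Cunninghamia lanceolata) kept at low or at sufficient phosphorus. The genes described are those of the deposited expression table that carry the KEGG ribosome pathway and have at least 10 estimated reads in each of the 2 libraries. They number 207 of the 313 genes with that pathway and of 32731 genes in all. The members were thus chosen by their measured counts in both libraries, and a gene read in 1 library alone could not be among the 207. The LP library came from seedlings at a phosphorus concentration below 0.01 mM and the CK library from seedlings at 1 mM, each for 4 months, and both after 1 month of growth in dilute Hoagland nutrient solution. Each group has 1 library, the number of plants behind it is not given in the sources used here, and no difference below has a replicate check. "Higher" and "lower" therefore describe these 2 libraries. Summed over genes, LP has 48502899 estimated reads and CK has 17848911. In a whole root, fewer cells of a type and less RNA per cell cannot be told apart.

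A ribosome is built from a small and a large subunit, each made of ribosomal RNA and many small proteins that are needed in near-equal amounts. A plant cell has 3 kinds of ribosome, in the cytosol, in plastids and in mitochondria, and the proteins of the latter kinds resemble those of bacteria. Ribosomes hold much of the phosphorus of a cell, as RNA, which is why their genes are of interest in phosphorus-limited roots. The table names the proteins in the KEGG style. A final e, as in S3e or L10e, or the names LP0, LP1 and LP2 mark the eukaryotic, cytosolic type, and a bacterial name such as S1 or L11 marks the organellar type. By these names 131 members were of the cytosolic type (53 of the small and 78 of the large subunit) and 76 of the organellar type (28 and 48), and 0 were unassigned. These names come from the table's annotation and no sequence was at hand to check them. Gene Ontology (GO) terms placed 31 of the 76 organellar-type genes in plastids alone, 8 in mitochondria alone, 1 in both and 36 in neither. Of the 131 cytosolic-type genes, 11 also carried a plastid term and 1 a mitochondrial term.

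On the deposited scale, ribosomal protein genes kept nearly the same level in LP and CK. Levels are given in RPKM, reads scaled by gene length and by the reads of the library, and ratios as log2((LP + 1)/(CK + 1)) on RPKM. The median log2 ratio of the 207 genes was 0.09 (95% interval over genes 0.05 to 0.13), against -0.15 (-0.15 to -0.14) over all 23800 genes with at least 10 reads in both libraries. Of the 207, 1 gene was at least 2-fold higher in LP and 1 at least 2-fold lower. Over all 23800 genes, 4.86% were at least 2-fold higher and 11.8% at least 2-fold lower. In all, 139 members had a ratio above 0, a share of 67.1% against 39.4% of all genes. In the authors' deposited table, 0 of the 207 are called significant, against 8.99% of all genes read in both libraries. Their share of all reads was 2.86% (LP) and 2.77% (CK).

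The scale of the ratios rests on the library totals. Scaling by edgeR's TMM factors would add 0.24 to the log2 ratio of a well-read gene and scaling by DESeq2's size factors 0.22, and these move the median of all genes by 0.20 under either. Ratios below 0 by less than that turn positive with these scalings, and ratios above 0 keep their direction. Relative to the median of all genes, the members' median was 0.24 higher on the deposited scale, 0.28 higher with TMM and 0.27 higher with size factors.

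**Figure D1:**
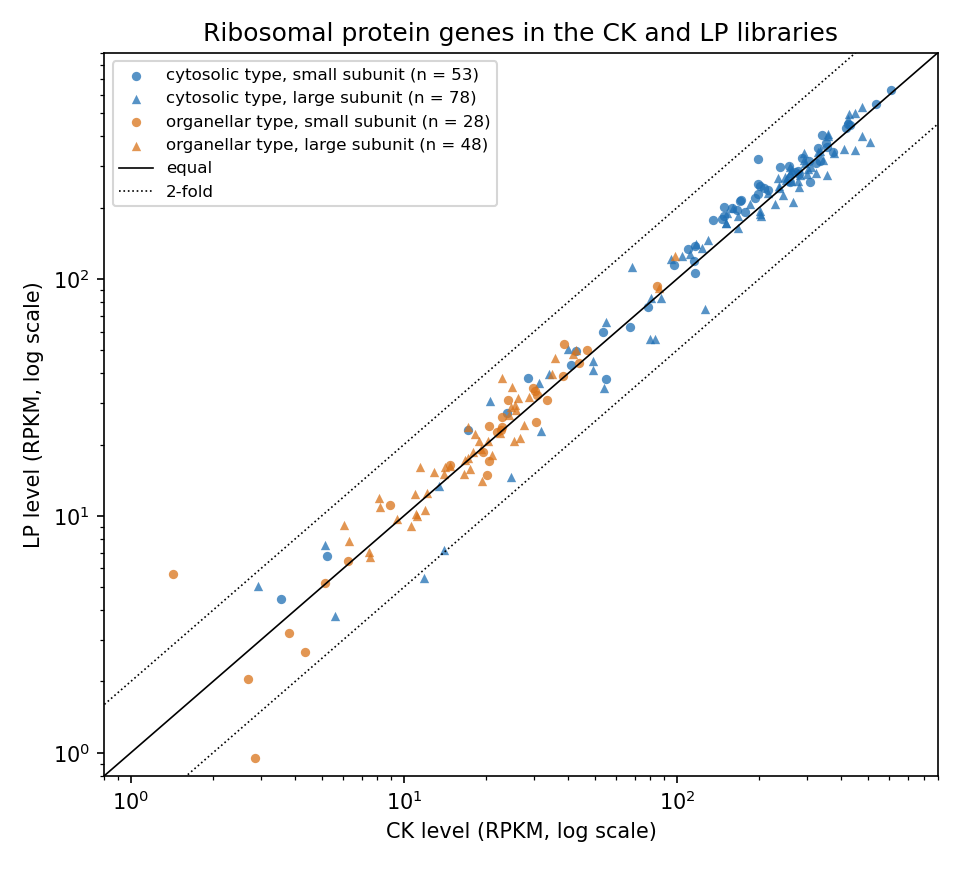
Level of each of the 207 ribosomal protein genes in CK (horizontal, RPKM, log scale) and LP (vertical, RPKM, log scale), by type and subunit. The solid line marks equal levels and the dotted lines a 2-fold difference in RPKM; the points follow the solid line over the whole range, with cytosolic-type genes mostly above 100 RPKM and organellar-type genes mostly between 10 and 100 RPKM.

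Genes of similar abundance give a closer comparison, since the log2 ratio was related to level across all genes (Spearman's rho 0.31 over 23800 genes of the same 2 libraries). At a mean of 100 RPKM or more, 99 cytosolic-type genes had a median of 0.11 and the 1224 genes outside the ribosome pathway a median of 0.15. The median of the ribosomal genes did not exceed that of other abundant genes, and their ratios lay closer together. The quartiles of the 99 were -0.05 and 0.21, and those of the 1224 were -0.21 and 0.54. None of the 99 (0 genes) was 2-fold apart, against 229 of the 1224 (18.7%). Between 10 and 100 RPKM, 61 organellar-type genes had a median of 0.10, with quartiles of -0.01 and 0.21. The 10026 other genes at that level had a median of -0.03 with quartiles of -0.38 and 0.29. Of the 61, 0 were 2-fold apart, against 13.2% of the others.

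**Figure D2:**
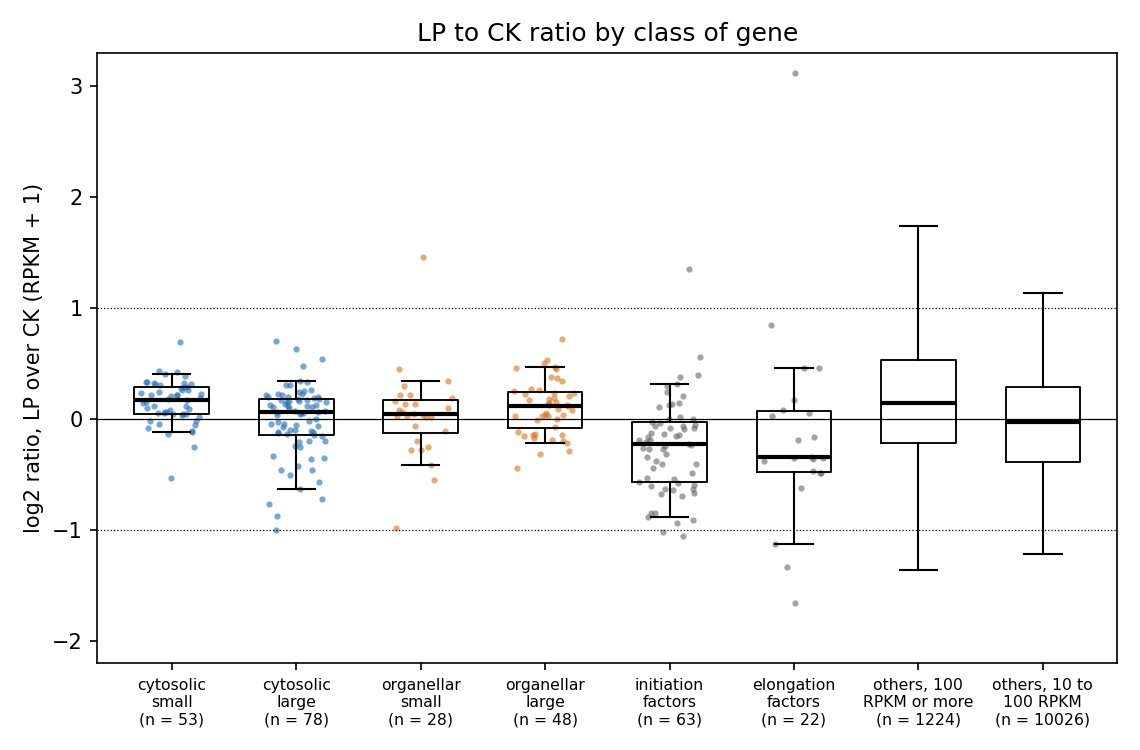
Log2 ratio of LP over CK (vertical, RPKM + 1) for the 4 classes of ribosomal protein genes, for translation factors, and for all other genes at 100 RPKM or more and at 10 to 100 RPKM. Points are genes (left out for all other genes), boxes span the quartiles with the median as a thick line, and whiskers reach the 5th and 95th percentiles; the ribosomal classes lie between the dotted 2-fold lines, apart from 1 organellar small subunit gene above and 1 cytosolic large subunit gene on the lower line.

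Small subunit genes of the cytosolic type leaned to LP more than large subunit genes. The 53 small subunit genes had a median log2 ratio of 0.17 (0.07 to 0.24) and 43 of them had a ratio above 0. The 78 large subunit genes had a median of 0.06 (-0.05 to 0.12), and 43 had a ratio above 0. The summed level was 12125 (LP) and 11110 RPKM (CK) for the small subunit. For the large subunit it was 16188 (LP) and 16134 RPKM (CK). With TMM, 51 of the 53 and 64 of the 78 lay above 0, against 54.3% of all genes. The direction of many large subunit genes thus depends on the scaling. Above the median of all genes lay 51 small and 59 large subunit genes on the deposited scale, and 51 and 60 with TMM. Such a scaling adds nearly the same amount to each well-read gene, so the order of the subunits could hardly change with it. The organellar type showed the opposite order, with a median of 0.04 (-0.06 to 0.14) over 28 small and 0.12 (0.03 to 0.19) over 48 large subunit genes, and these intervals overlap widely. The intervals of the cytosolic subunits also overlap. No test of either difference was possible with 1 library per group.

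Copies of the same protein were summed to give 76 cytosolic proteins, 32 of the small and 44 of the large subunit. Their summed levels had a median of 349.7 RPKM in LP (140.2 to 720 RPKM) and 339 RPKM in CK (118 to 662 RPKM). The coefficient of variation over proteins was 31.4% in LP and 30.9% in CK, and the order of the proteins was much the same in both (Spearman's rho 0.91 over 76 proteins, a description of the 2 libraries). Of the 32 small subunit proteins, 26 were higher in LP, and of the 44 large subunit proteins, 24. Under TMM or size-factor scaling 5 of the 76 would stay lower in LP, namely L31e, L3e, L5e, L7e and S8e. With TMM, the log2 ratios were -0.12 for L3e and -0.11 for L31e. Those of L7e (-0.03), S8e (-0.01) and L5e (-0.004) were close to 0. The 47 organellar proteins varied more, from 5.71 to 143.7 RPKM in LP and from 1.43 to 131.2 RPKM in CK, with a coefficient of variation of 77.8% and 73.3%.

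**Figure D3:**
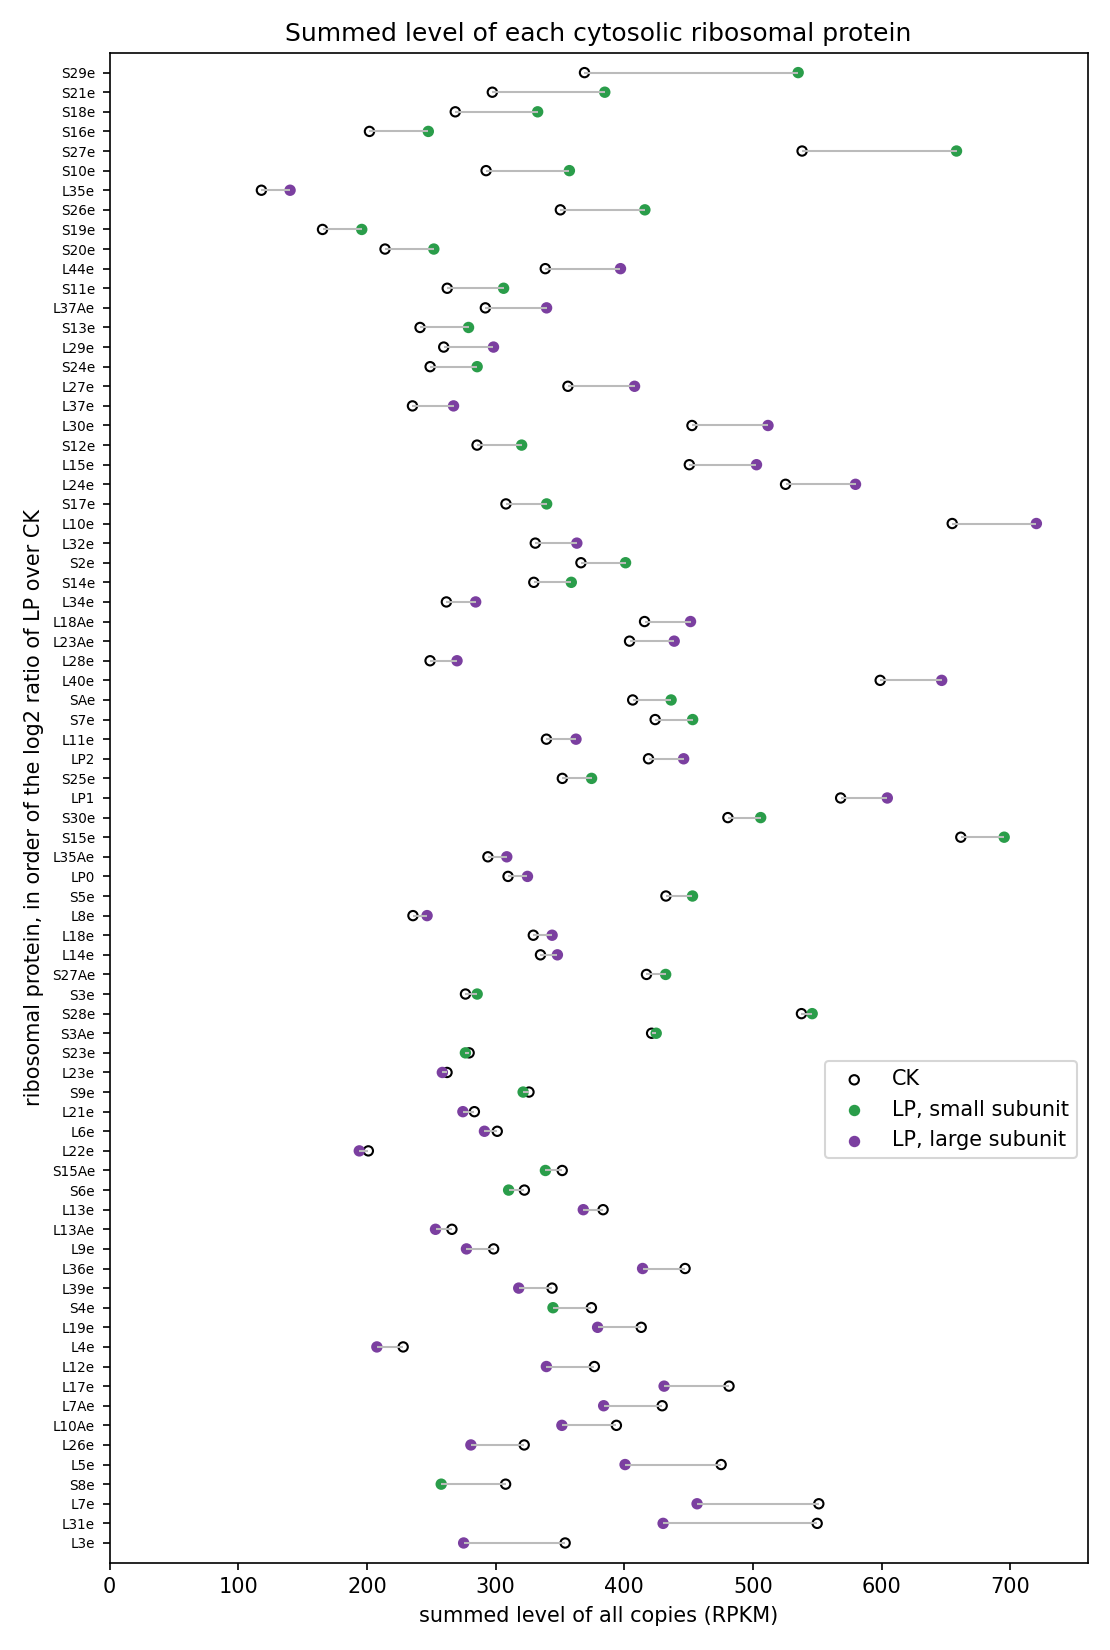
Summed level of the copies of each of the 76 cytosolic ribosomal proteins (horizontal, RPKM) in CK (open circles) and LP (filled circles, coloured by subunit), from the lowest LP to CK ratio at the bottom to the highest at the top. Small subunit proteins fill most of the upper places, with S29e at 535 (LP) and 369 RPKM (CK) at the top, and large subunit proteins most of the lower places, with L3e at 275 RPKM and 354 RPKM at the bottom.

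Among cytosolic proteins, the 6 with the highest ratios belong to the small subunit. S29e, a small zinc-binding protein of the head of the subunit, summed to 535 (LP) and 369 RPKM (CK) (1.45-fold, 95% interval of the reads 1.40 to 1.50). Its copy comp5831_c0 stood at 319.7 RPKM and 197.6 RPKM (1.62-fold, 1.54 to 1.70) and its copy comp15993_c0 at 215 RPKM and 171 RPKM. Both copies were thus higher in LP, by unequal amounts. S21e summed to 385 (LP) and 297 RPKM (CK), with comp27321_c0 at 201 RPKM and 149 RPKM (1.35-fold, 1.28 to 1.42). S18e stood at 333 RPKM and 269 RPKM, S16e at 248 RPKM and 202 RPKM, and S27e, another zinc-binding protein, at 658 RPKM and 538 RPKM. These intervals cover counting error only.

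The proteins at the lower end mostly belong to the large subunit. L3e, which reaches towards the peptidyl transferase centre where peptide bonds are made, had 1 gene at 275 (LP) and 354 RPKM (CK) (1.29-fold lower, 1.26 to 1.32). L31e, which lies at the exit of the peptide tunnel, summed to 430.1 RPKM and 549.9 RPKM. Its copies differed in direction, with comp5711_c0 at 379 (LP) and 509.96 RPKM (CK), and comp18136_c0 at 50.7 RPKM and 39.9 RPKM. L7e summed to 457 (LP) and 551 RPKM (CK). L5e, which carries 5S ribosomal RNA into the subunit, stood at 401 RPKM and 475 RPKM (1.19-fold lower, 1.16 to 1.21). L11e, its partner in the 5S particle, was on the other side at 362 (LP) and 339 RPKM (CK). S8e, of the small subunit, stood at 258 RPKM and 308 RPKM (1.19-fold lower, 1.15 to 1.23). L4e, which lines the peptide tunnel, stood at 208 RPKM and 228 RPKM, a difference whose direction turns under TMM.

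The stalk of the large subunit, which recruits the GTP-binding translation factors, is formed by LP0 and by LP1 and LP2. LP0 summed to 325 (LP) and 309.6 RPKM (CK), LP1 to 604 RPKM and 568 RPKM, and LP2 to 446 RPKM and 419 RPKM. The 3 stalk proteins thus kept their proportions, with log2 ratios of 0.07, 0.09 and 0.09. Among the 8 stalk genes the ratios ran from -0.46 in comp9457_c0, an LP0 gene at 22.9 RPKM and 31.7 RPKM, to 0.31 in comp27362_c0, an LP1 gene at 199 RPKM and 161 RPKM. The main LP0 gene, comp23480_c0, stood at 288 RPKM and 264 RPKM, and the highest LP1 gene, comp16664_c0, at 259 RPKM and 278 RPKM.

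Some ribosomal proteins have roles beyond structure. S6e, which in plants as in animals is phosphorylated by S6 kinase downstream of the growth regulator TOR, had 1 member at 310.1 (LP) and 322 RPKM (CK) (1.04-fold lower, 1.01 to 1.07, a direction that turns under TMM). S27Ae and L40e are made as fusions with ubiquitin, the tag for protein breakdown. S27Ae stood at 432 (LP) and 417 RPKM (CK). L40e summed to 647 RPKM and 599 RPKM, and its 3 genes differed. Of these, comp14200_c0 had 401 (LP) and 359 RPKM (CK) and comp13928_c0 had 231 RPKM and 215 RPKM. The other, comp17653_c0, is 3448 bases long, far above the class median of 907 bases, and had 14.6 RPKM and 24.7 RPKM (1.69-fold lower, 1.59 to 1.80).

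The 5 most abundant genes were close to parity. S15e comp24756_c0, a protein near the decoding site, had 629.8 (LP) and 609 RPKM (CK) (1.03-fold, 1.01 to 1.06). S28e comp22233_c0 had 546 RPKM and 538 RPKM. L24e comp25392_c0, which in the yeast ribosome forms a bridge to the small subunit, had 535 RPKM and 476 RPKM. L15e comp25041_c0 had 503 RPKM and 451 RPKM, and L10e comp19642_c0, which joins the large subunit late in its assembly, had 499 RPKM and 428 RPKM. All 5 had log2 ratios between 0.02 and 0.22 on the deposited scale.

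Gene copies of 1 protein varied more than the sums. Among the 76 cytosolic proteins, 34 had 1 member and 42 had several, up to 7 for L10e. The copy that was highest in LP was also the highest in CK for all 42, and its share of the sum differed between libraries by a median of 2.11 percentage points and by at most 8.67. The widest range of log2 ratios was that of L10e, from -0.87 to 0.70 among the 6 copies with at least 50 reads in both libraries. At the upper end, comp5612_c0 had 112.3 (LP) and 68.6 RPKM (CK) (1.64-fold, 1.55 to 1.73), the highest ratio of any cytosolic-type gene with at least 50 reads, and comp47954_c0 had 7.56 RPKM and 5.13 RPKM. At the lower end, comp5118_c0 had 7.2 RPKM and 14 RPKM (1.95-fold lower, 1.63 to 2.32), the lowest ratio of that class, comp23976_c0 had 34.6 RPKM and 54.2 RPKM (1.56-fold lower, 1.44 to 1.70) and comp27567_c0 had 56 RPKM and 79.6 RPKM. The L10e sum, led by comp19642_c0 with 69.3% of it in LP and 65.3% in CK, was 720.3 RPKM and 655 RPKM.

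Among cytosolic copies with at least 50 reads in both libraries, L17e had the next widest range after L10e, with comp18260_c0 at 172 (LP) and 151 RPKM (CK) and comp5794_c0 at 184 RPKM and 203 RPKM. A short gene of 213 bases, comp5877_c0, had 74.5 RPKM and 127 RPKM (1.71-fold lower, 1.48 to 1.96). Other copies at the outer ends were L7Ae comp5541_c0, 202 bases long, at 30.6 (LP) and 20.6 RPKM (CK), and L10Ae comp5601_c0, 328 bases long, at 55.8 RPKM and 83 RPKM. The 1 cytosolic-type gene 2-fold lower, L13Ae comp6694_c0, is 252 bases long and had 5.44 (LP) and 11.9 RPKM (CK) on 50 and 40 reads (2.19-fold lower, 1.41 to 3.38). A copy in a transcript assembly may be a fragment, or may share reads with a closely similar copy, so that single copies are less certain than sums.

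Organellar-type genes were read at a far lower level than cytosolic-type genes, with a median of 19.9 RPKM in LP and CK alike, against 220 RPKM and 202 RPKM. Their summed level was 1859 (LP) and 1704 RPKM (CK), 1.09 times as high, against 1.04 times for the cytosolic type (28313 RPKM and 27243 RPKM). By GO term, the 31 plastid genes had a median log2 ratio of 0.09 (0.03 to 0.18), the 8 mitochondrial genes 0.20 (-0.20 to 0.46) and the 36 with neither term 0.05 (-0.06 to 0.14). These intervals overlap. Over 63 genes of photosynthesis, which mark green tissue, the total was 969 (LP) and 1499 RPKM (CK), while the 51 of them with at least 10 reads in both libraries had a median log2 ratio of 0.09 with 28 above 0. Their part in the plastid-type values was not tested. The 26 genes with Casparian or root hair terms, which mark roots, summed to 1457 RPKM and 1422 RPKM, and the 22 of them read in both had a median of -0.25 with 9 above 0.

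Among organellar-type genes with at least 50 reads, the highest ratio was that of L11 comp21028_c0, at 38.3 (LP) and 22.9 RPKM (CK) (1.67-fold, 1.45 to 1.93). With the plastid-term copy comp18396_c0 at 28.9 RPKM and 24.7 RPKM, the L11 sum was 67.3 RPKM and 47.6 RPKM, and the leading copy differed between the libraries. L7/L12, the bacterial form of the stalk protein, had 4 genes of unequal ratio. In LP and CK, comp23428_c0 had 9.15 RPKM and 6.03 RPKM (1.52-fold, 1.24 to 1.87), comp17432_c0 had 11.9 RPKM and 8.12 RPKM (1.47-fold, 1.22 to 1.79), and comp18237_c0, with a mitochondrial term, had 16.1 RPKM and 11.4 RPKM. The last, comp6638_c0, had 18 RPKM and 21 RPKM. The L31 gene comp10063_c0, with a plastid term, had 34.9 (LP) and 24.9 RPKM (CK) (1.40-fold, 1.25 to 1.57).

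The lowest organellar-type ratio was that of an S1 gene on few reads, comp132465_c0, at 0.95 (LP) and 2.86 RPKM (CK) on 20 and 22 reads. Its RPKM was 2.99-fold lower (1.56 to 5.77), the largest such fold among the 207, but with the pseudocount of 1 its log2 ratio of -0.99 falls just short of 2-fold. Among genes with at least 50 reads in both libraries the lowest was S1 comp26261_c0, at 2.65 (LP) and 4.34 RPKM (CK) (1.64-fold lower, 1.39 to 1.92). The S1 protein binds messenger RNA in bacteria, and its 6 genes summed to 35.5 (LP) and 42.9 RPKM (CK). L1 comp6260_c0 had 14 (LP) and 19.4 RPKM (CK) (1.38-fold lower, 1.26 to 1.52), S5 comp22292_c0 had 14.9 RPKM and 20.2 RPKM (1.36-fold lower, 1.24 to 1.48), and L15 comp29471_c0 had 21.2 RPKM and 26.6 RPKM (1.25-fold lower, 1.15 to 1.37). The sums of 4 organellar proteins, L1, L15, S1 and S18, stayed lower in LP under each of the 3 scalings. With TMM the log2 ratio was -0.12 for L1, and close to 0 for S18 (-0.04), S1 (-0.02) and L15 (-0.02). The most abundant organellar-type gene, L2 comp21527_c0, had 124.6 (LP) and 98.2 RPKM (CK). It carries a plastid term and is 4503 bases long with 16 assembled transcripts. S16 comp6082_c0 had 93 RPKM and 84.5 RPKM, and L13 comp21174_c0 had 91.6 RPKM and 86.3 RPKM.

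Longer genes had lower ratios in most classes. Across the 48 organellar large subunit genes, the log2 ratio and the length of the assembled gene had a Spearman's rho of -0.55, and across the 28 small subunit genes -0.17. In the cytosolic type, rho was -0.40 over 53 small and -0.11 over 78 large subunit genes. The relation was not confined to ribosomal proteins. Genes outside the pathway had a rho of -0.33 at 10 to 100 RPKM and of -0.21 at 100 RPKM or more. The 12343 such genes under 10 RPKM did not share it, with a rho of 0.07. Over all 23800 genes it was 0.01. All points share the same 2 libraries, and the part of length in the differences between classes was not tested. Median lengths were 966 bases for cytosolic small and 888.5 for cytosolic large subunit genes.

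**Figure D4:**
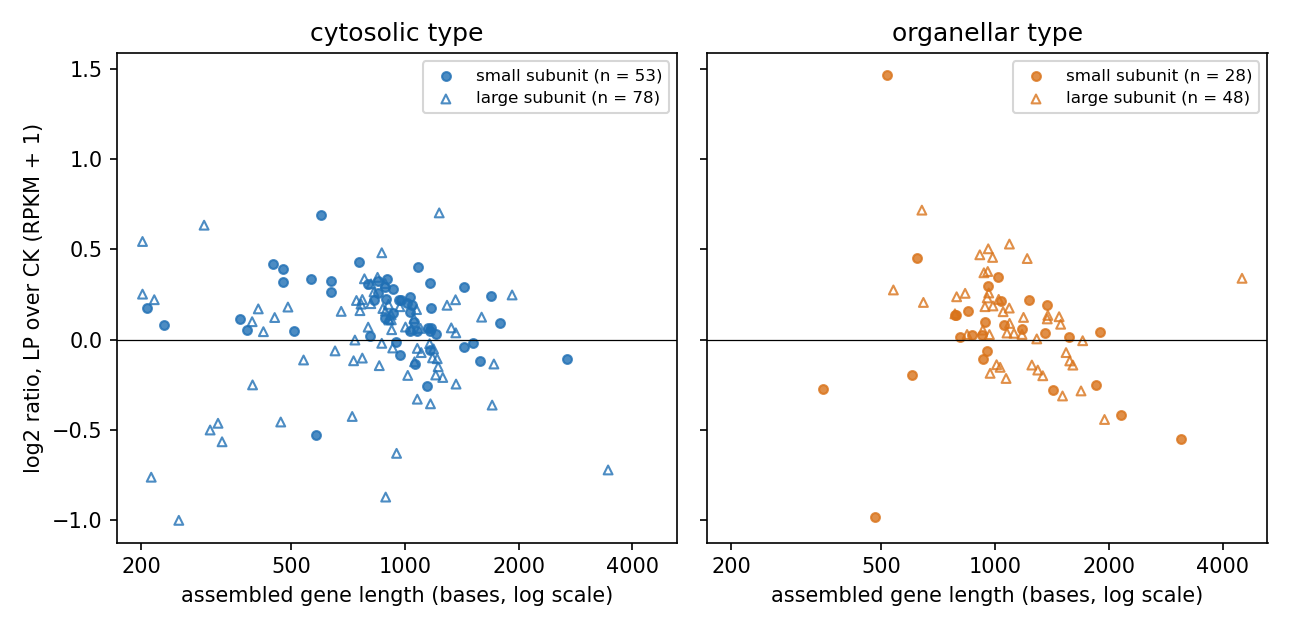
Log2 ratio of LP over CK (vertical, RPKM + 1) against the length of the assembled gene (horizontal, bases, log scale) for cytosolic-type (left) and organellar-type (right) ribosomal protein genes. Filled circles are small and open triangles large subunit genes; in the right panel the longer genes lie lower (rho -0.38 over 76 genes), apart from the 4503-base L2 gene at 0.34, and the short genes of the left panel spread widely to both sides.

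At the limit on reads, values were least certain. Ranked by the smaller of a gene's 2 counts, the 3 lowest members were S2 comp71401_c0 (131 reads in LP and 12 in CK), L34e comp13267_c0 (58 and 12.1) and S11 comp127147_c0 (29 and 14). The S2 gene, which has a plastid term, is the only one of the 207 that was at least 2-fold higher in LP (5.71 RPKM and 1.43 RPKM, 3.99-fold, 2.21 to 7.93). Just outside lay S1 comp138400_c0 (22 reads in LP and 7 in CK), another S2 gene, comp86989_c0 (45 and 6 reads, 5.41 RPKM and 1.97 RPKM), and L10e comp18913_c0 (34 and 4). With at least 50 reads asked of both libraries, 198 members stayed and 0 were 2-fold apart in either direction.

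The 106 genes of the pathway that missed the limit are described apart from the members. A low level follows in part from the limit, and other genes that missed it were not compared in level or length. Of the 106, 91 had reads in LP and 0 in CK, and all 91 were of the cytosolic type. They were shorter (median 373 bases) than the members (median 962 bases) and low, with 0.13 to 12.9 RPKM in LP and a sum of 331.5 RPKM, 1.09% of the LP level of the whole pathway. Together they hold 5645 reads in LP. They are set apart here by their 0 reads in CK, so no fold is given for them. All 102 cytosolic-type genes that missed the limit hold 5817 reads in LP and 67.1 in CK. Of the 102, 83 have at least 10 reads in LP and so missed the limit by their CK reads. Their low CK sum therefore follows from the limit. Of the 106 genes, 31 are called significant in the authors' deposited table. The share of calls among all genes that missed the limit was not computed, and the 8.99% above covers genes read in both libraries only. The highest counts were those of S2e comp19016_c0 with 397 LP reads, L5e comp18327_c0 with 340 and LP0 comp15499_c0 with 275.

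By annotation, these LP-only genes carry the names of most cytosolic ribosomal proteins. Of the 91, 80 have at least 10 reads in LP. For L22e, S21e, S12e, L28e and L26e, the LP-only genes have fewer than 10 reads. The 91 genes name 73 proteins, 58 of them by 1 gene, and 71 of the 76 cytosolic proteins with members have an LP-only gene. The 5 without are L31e, L39e, L40e, S15e and S27e. L27Ae and L38e are named by LP-only genes alone and have no member. A protein database entry was shared with a member in 4 of the 91. Of the 198 members that have an entry, 70 share it with another member. How many of the 91 have an entry was not counted, so these are not comparable shares. Genes with at least 10 reads in LP and 0 in CK made up 34.3% of the 233 cytosolic-type genes of the pathway, 0% of the 80 organellar-type genes and 3.57% of all 32731 genes. The reverse, at least 10 reads in CK and 0 in LP, held for 1 gene of the pathway and for 148 of all genes. A list of fungal marker names (chitin synthase, hydrophobin, ergosterol) matched 0 genes of the table. Such a short list would miss genes of fungi or other organisms annotated under other names. The source of the LP-only genes was not tested.

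**Figure D5:**
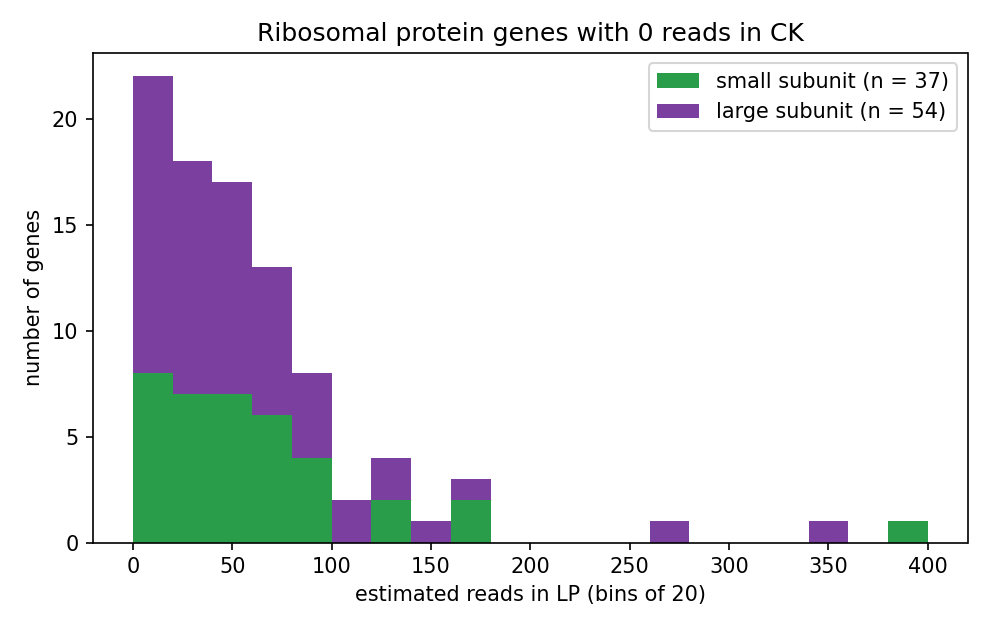
Number of ribosomal protein genes with 0 reads in CK (vertical) by their estimated reads in LP (horizontal, bins of 20 reads), coloured by subunit. Most of the 91 genes have fewer than 100 reads, and S2e comp19016_c0 with 397 reads is the highest.

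Genes of the other lists of protein and RNA synthesis had lower median ratios than ribosomal proteins. Of 63 translation initiation factors with at least 10 reads in both libraries, 14 had a ratio above 0, 1 was 2-fold higher and 2 were 2-fold lower, with a median log2 ratio of -0.23 (-0.38 to -0.13). The list was drawn by name and includes 4 genes annotated as initiation factor 2C, an older name of Argonaute proteins, and the gene 2-fold higher is one of these. All such counts stand beside the 4.86% higher and 11.8% lower of all genes. The 22 elongation factors, which deliver aminoacyl-tRNA, exchange nucleotides or move the ribosome along the message, had a median of -0.34 (-0.48 to 0.08), with 1 at least 2-fold higher and 3 at least 2-fold lower. For the 41 RNA polymerase genes the median was 0.02 (-0.36 to 0.17), and 1 gene was 2-fold higher while 6 were 2-fold lower. Relative to the median of all genes these were -0.08, -0.20 and 0.16 on the deposited scale, and -0.04, -0.15 and 0.20 with TMM. The initiation factor genes have a median length of 1674 bases, longer than the ribosomal protein genes. These lists were not matched to the members by level. Median LP levels were 34.9, 21.2 and 13.1 RPKM in the order above, against 82.9 RPKM for the members. The intervals of elongation factors and RNA polymerase genes overlap that of the members (0.05 to 0.13).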

How the data were processed

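Root RNA of 2 groups with 1 library each was sequenced on an Illumina instrument as paired-end libraries, per the labels' protocols. The authors deposited 1 table with estimated counts per assembled gene, not normalized, and with RPKM values, per the file headers. It also gives the authors' log2 fold change, p-value, FDR and yes or no call, of which the call alone was used, and gene lengths in bases. The names of assembler, aligner and counter: not given in the sources used here. The labels' extraction text names an adipose type and either poly(A) fraction, so the RNA fraction is uncertain.

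Members and lists were chosen with earlier results of these data known. No test was run, because a group has 1 library. Ratios are log2((LP + 1)/(CK + 1)) on RPKM. Intervals of folds are exact (Clopper-Pearson) 95% intervals of reads rounded to whole numbers and cover counting error only. Intervals of medians are order-statistic intervals over genes. Scaling factors came from edgeR 4.0.16 (TMM) and DESeq2 1.42.0 in R 4.3.3, on counts rounded to whole reads, and the rest from Python 3.11.15. Named genes are the 5 highest and 5 lowest cytosolic and 4 highest and 4 lowest organellar ratios with at least 50 reads in both libraries, the 5 and 3 most abundant, the stalk proteins, the 3 proteins with the widest range between copies and the 3 genes on each side of the read limit. Proteins named by their sums, L13Ae comp6694_c0, S1 comp132465_c0, further copies and the LP-only genes were chosen after their values were seen, as were the GO split, the classes by level and the relation to length. Lists for ribosome biogenesis (ko03008) and for ribosomal proteins outside the pathway matched 0 genes. The calculation was tested on simulated data. No sequences were used.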

Additional observations from a re-analysis of the deposited data

How the results depend on the processing

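The medians of all members, of each type and of each subunit stayed above 0 under every alternative run, and most alternatives left them within their intervals. TMM scaling gave 0.34 for all members, 0.34 for the cytosolic and 0.32 for the organellar type, 0.34 for the small and 0.32 for the large subunit, and median-of-ratios scaling gave 0.32, 0.33, 0.31, 0.34 and 0.30. Both shift every gene and not the members alone. Another run asked for a mean of 1 RPKM with no minimum count, which admits LP-only genes. The medians were then 0.17 for all 273 genes, 0.21 for the cytosolic type, 0.21 for the small and 0.14 for the large subunit. Of the 273, 61 were at least 2-fold higher and 6 at least 2-fold lower. The shares of all genes under that filter were not computed. The count of 1 gene at least 2-fold lower became 2 with a pseudocount of 0.1, and 0 with TMM, with at least 50 reads, with sums per protein or with genes of at least 500 bases (an alternative chosen after the data were seen). The count of 1 gene at least 2-fold higher became 0 with at least 50 reads. Without the 5 most abundant members the ratio of summed RPKM was 1.03 for the cytosolic and 1.08 for the organellar type. No paired analysis was possible because each group has 1 library. For the same reason no library could be left out. Depth limits the lowest members, where 10 reads on a gene of 1 kilobase make 0.206 RPKM (LP) or 0.56 RPKM (CK).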

Other observations

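Log2 ratios of elongation factor genes ran from -1.65 to 3.12, beyond the range of the ribosomal protein genes on both sides. Among elongation factors with at least 10 reads in both libraries, EF-1 alpha comp24050_c0 had 11.2 (LP) and 0.41 RPKM (CK), on 812 and 10.8 reads, while EF-1 alpha comp131161_c0 had 0.83 RPKM and 4.76 RPKM, on 10 and 21 reads. EF-1 beta comp8956_c0, part of the exchange factor that recharges EF-1 alpha with GTP, had 793 (LP) and 439.5 RPKM (CK), a log2 ratio of 0.85. Among initiation factors by name, the highest was comp5678_c0, annotated as eukaryotic translation initiation factor 2C, the older name of Argonaute proteins of RNA silencing, at 228 (LP) and 88.95 RPKM (CK). The lowest was an IF-2 gene, comp25508_c0, at 4.58 RPKM and 10.6 RPKM. These genes were chosen after their values were seen. At least 10 reads in LP and 0 in CK were found for 5 of 40 elongation factor genes and 4 of 75 initiation factor genes, against 0 of 45 RNA polymerase genes and 3.57% of all 32731 genes. The reverse held for 3 elongation factor genes, and it is the harder case to meet because LP is the deeper library.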
